A study of Mus musculus with 2 samples.

Results

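The cells described here are neutrophils of 4T1 mammary tumours that carried almost no RNA of 3 hypoxia-induced genes. They were chosen by measured values: at least 500 unique molecular identifiers (UMIs, each standing for 1 captured transcript) and 200 genes per cell, at most 20% mitochondrial UMIs, S100a8 and S100a9 together at 10 or more UMIs per 10000, at least 1 UMI of Csf3r or Cxcr2, C1qa, C1qb and C1qc together under 5 per 10000, no Epcam UMI, and at most 1 UMI of Ero1l, Hilpda and Bnip3 together. The rule found 423 cells, 235 from the control library and 188 from the knockout library, among 14709 cells that passed the limits on UMIs, genes and mitochondrial share, and 15288 barcodes in all. 4T1 is a mouse triple-negative breast cancer line. Female BALB/c mice (written BLB/c in the design text) received either 4T1 cells with a control guide RNA, labelled wild type, or 4T1 cells with a K2 guide RNA, labelled K2-KO, in the mammary fat pad. K2 is taken to be Kindlin-2, the integrin activator encoded by Fermt2, which the title of the series names in connection with immune evasion. Tumours were taken at 150 mm3, digested with collagenase (45 min), and sorting on mCherry of the live cells preceded droplet capture. The labels give no ages, no number of tumours pooled per library and no statement of which sorted cells were loaded. The guides were in the injected cells, so the neutrophils are host cells in both groups.

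Each group is 1 library. No difference below has a replicate check, no test was made, and every interval covers counting error only: it leaves out the spread between tumours, and it is too narrow because UMIs of 1 cell are not independent. "Higher" and "lower" therefore describe these 2 libraries.

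Neutrophils are short-lived phagocytes that carry preformed granule proteins, move by the chemokine receptor Cxcr2 and depend on the growth factor receptor Csf3r. Interferons signal through JAK kinases and STAT factors, which bind short promoter elements and switch on antiviral genes. Type II interferon in addition strongly induces guanylate-binding proteins (GBPs), immunity-related GTPases (IRGs) and the genes that cut, transport and present peptides on MHC class I. In hypoxic tissue, HIF factors induce Ero1l, Hilpda, Bnip3 and the enzymes of glycolysis. The comparison addressed here is whether interferon and class I genes differed between the 2 libraries in neutrophils outside that hypoxic state.

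The members were shallow cells. The median was 2424 UMIs and 911 genes per control cell, and 2734 UMIs and 1005.5 genes per knockout cell, against 22793 and 16482.5 UMIs per cell over all kept cells. Their UMIs summed to 614188 in the control and 533558 in the knockout library, and the median mitochondrial share was 0.274% and 0.271%. Across the libraries 13 barcode sequences were shared, none of them by members. In tumour cells, which carried the guides, Fermt2 stood at 41.4 UMIs per 1000000 UMIs of the cell class (CPM) in the control and 18.3 CPM in the knockout library. A count from the 3′ end of the transcript does not show whether the remaining RNA was edited. In the neutrophils Fermt2 had no UMI in either library, which allows a level of up to 4.88 CPM and 5.62 CPM (3 counts of each total), Fermt1 had 1 UMI, and Fermt3, the kindlin of blood cells, stood at 35.8 CPM and 41.2 CPM.

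All 12 neutrophil markers examined were detected in both libraries. S100a9 was at 55009 CPM in control and 28357 CPM in knockout cells, and its partner S100a8 at 30018 CPM and 13820 CPM. Csf3r stood at 1773 CPM and 2034 CPM, Cxcr2 at 956 CPM and 1509 CPM, and the lipolysis inhibitor G0s2 at 10277 CPM and 7941 CPM. These genes chose or label the cells and are given as description only, as are Ero1l (34.2 and 24.4 CPM), Hilpda (27.7 and 16.9 CPM) and Bnip3 (40.7 and 26.2 CPM). Ly6g, the classical surface marker of mouse neutrophils, was sparse, with UMIs in 18 control and 4 knockout cells. No UMI of the 5 mast cell and basophil markers was found in either library, the 5 eosinophil markers gave 0 and 1 UMI, and the 4 B cell markers gave 0 and 1 UMI. RNA of other cells was present all the same. The 8 tumour cell markers summed to 389 CPM in control members and 93.7 CPM in knockout members, against 5033 CPM and 4321 CPM in tumour cells. One control cell held 43.9% of the control library's UMIs of that list, and Krt14, Cldn3 and Cldn7 were at 0 in the knockout members. The 5 NK cell markers summed to 4.88 CPM and 154 CPM, with 52.4% of the knockout UMIs in 1 cell, and the 7 T cell markers to 22.8 CPM and 30.0 CPM, with Cd3e and Cd8a at 0 in both. The 6 dendritic cell markers summed to 3.26 CPM and 63.7 CPM, with 85.3% of the knockout UMIs in 1 cell. The 7 macrophage markers summed to 282 CPM and 184 CPM, the 4 monocyte markers to 176 CPM and 133 CPM, the 4 fibroblast markers to 27.7 CPM and 65.6 CPM, and the 3 endothelial markers to 22.8 CPM and 103 CPM.

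Members were 50.1% of all neutrophils by the same rule in the control library (235 of 469, exact Clopper-Pearson 95% interval 45.5 to 54.7%) and 80.0% in the knockout library (188 of 235, 74.3 to 84.9%). As a share of all kept cells they were close: 3.03% in the control and 2.70% in the knockout, with overlapping intervals (2.66 to 3.44% and 2.33 to 3.11%). The hypoxic neutrophils, with 2 or more UMIs of the 3 genes, came to 234 control and 47 knockout cells. A limit counted in UMIs lets shallow cells in: after thinning every neutrophil to 500 UMIs, 79.7% of control and 98.7% of knockout neutrophils fell within it. Inside the limit, 172 control and 152 knockout members had no hypoxia UMI and 63 and 36 had 1. Just outside it, 41 control and 14 knockout neutrophils had 2. The label fits in degree: 29 other hypoxia and glycolysis genes, which the rule did not use, summed to 4603 CPM in control and 2768 CPM in knockout members, and to 10611 CPM and 6318 CPM in hypoxic neutrophils.

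Antiviral interferon genes stood higher in the knockout members. The 42 measured genes of this list summed to 9652 CPM in control and 15629 CPM in knockout cells, 1.62-fold higher (log2 ratio 0.70, 95% interval 0.65 to 0.74). Of the 39 with at least 20 UMIs over both libraries, 27 were at least 1.5-fold higher and none was 1.5-fold lower. Over all 4632 genes with as many UMIs, 23.5% were at least 1.5-fold higher and 17.6% at least 1.5-fold lower. The median log2 ratio was 0.94 for the list and 0.08 for all genes. Ifitm1, an abundant relative of Ifitm3 that was listed with the suppressive genes, stood lower, and with it added the antiviral sum was 14514 CPM and 17788 CPM (log2 ratio 0.29, interval 0.25 to 0.34); that setting was added after the data were seen. Mx1 and Mx2 have no row in the matrix, and Oas1g, Ifi44 and Phf11b had fewer than 20 UMIs. The list and its members were chosen with such a difference already known in these data, so its direction is not independent evidence.

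Ifit2, which binds viral RNA, had the largest ratio of the list, with 14 UMIs in 6 control cells and 85 UMIs in 21 knockout cells, a level of 22.8 CPM against 159 CPM. Its relatives Ifit1 (112 and 281 CPM), Ifit3 (6.51 and 35.6 CPM) and Ifit3b (17.9 and 63.7 CPM) stood in the same order. The RNA sensor Ifih1 was at 74.9 CPM and 225 CPM, whereas its fellow sensor Ddx58 was at 120 CPM and 184 CPM and their regulator Dhx58 at 11.4 CPM and 24.4 CPM, with an interval for Dhx58 that spans no difference (log2 -0.34 to 2.66). All 3 sensors had the higher level in the knockout library, by ratios of unequal size.

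Among the oligoadenylate synthetases and their kin, Oasl2 was at 73.3 CPM in control and 251 CPM in knockout members and Oas3 at 104 CPM and 253 CPM. By contrast, Oas2 (99.3 and 126 CPM) and Oas1a (30.9 and 41.2 CPM) had intervals that include no difference. Oasl1 was at 262 CPM and 349 CPM. Rsad2 (viperin), which makes a chain-terminating nucleotide, was at 461 CPM in 51 control cells and 945 CPM in 73 knockout cells, and Cmpk2, its neighbour in the genome, at 27.7 CPM and 84.3 CPM. The ubiquitin-like modifier Isg15 was at 1685 CPM and 2515 CPM, 1.49-fold higher and so just under the limit of 1.5. Rnf213, a ubiquitin ligase that recognises intracellular microbes, stood at 238 CPM and 594 CPM, and the nucleic acid sensor Zbp1 at 81.4 CPM and 159 CPM.

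The transcription factors that carry the signal were less uniform. Stat2 was at 76.5 CPM in control and 178 CPM in knockout members and Irf7 at 143 CPM and 262 CPM. Irf9, a DNA-binding interferon regulatory factor, was the only tested member of the list with a lower value in the knockout, at 150 CPM and 139 CPM (log2 ratio -0.11, interval -0.57 to 0.35). The Schlafen genes ran from Slfn5 (210 and 467 CPM) and Slfn8 (66.8 and 148 CPM) to Slfn1 (588 and 903 CPM) and Slfn4 (1057 and 1417 CPM). Smaller ratios were found for the membrane protein Ifitm3 (1187 and 1419 CPM), Ifi27l2a (536 and 727 CPM) and Samd9l (236 and 328 CPM). Usp18 (42.3 and 46.9 CPM) and Ifi204 (17.9 and 22.5 CPM) were sparse and had intervals across 0. The other tested members with at least 1.5-fold higher values were Bst2, Eif2ak2, Herc6, Ifi35, Isg20, Parp14, Trim30a and Xaf1, at log2 ratios from 0.66 to 1.34, and Rtp4 lay below the limit at 0.53.

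The guanylate-binding proteins and immunity-related GTPases, which attack vacuoles that hold microbes, showed the largest ratio of the 4 interferon and class I lists. Their sum was 1926 CPM in control and 5506 CPM in knockout members, 2.86-fold higher (log2 ratio 1.52, interval 1.42 to 1.61). All 14 tested members were at least 1.5-fold higher, against 23.5% of all genes, with a median log2 ratio of 1.60. The members not tested were Gbp6 (8 and 2 UMIs), Gbp10 (2 and 1), Iigp1 (4 and 6) and Gbp11, which has no row. Gbp2b had 298 UMIs in 86 control cells (485 CPM) and 684 UMIs in 124 knockout cells (1282 CPM). Gbp5, which also promotes inflammasome assembly, was at 291 CPM in 40 control cells and 1008 CPM in 88 knockout cells, and Gbp2 at 311 CPM in 71 cells and 860 CPM in 122 cells. Among the GTPases of the IRG family, Irgm1 was at 111 CPM and 324 CPM, Igtp at 116 CPM and 313 CPM, Ifi47 at 125 CPM and 482 CPM, and Irgm2 at 106 CPM and 189 CPM. Gbp7 stood at 228 CPM and 523 CPM, Gbp3 at 45.6 CPM and 156 CPM, Gbp4 at 16.3 CPM and 93.7 CPM, Gbp9 at 29.3 CPM and 91.8 CPM, and Gbp8 at 26.1 CPM and 54.4 CPM. The pair Tgtp1 (3 and 37 UMIs) and Tgtp2 (5 and 23 UMIs) was sparse. Several of these genes are close copies of one another, as are the Ifit3 pair, and how reads that fit more than 1 copy were assigned is not given in the sources used here.

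**Figure D1:**
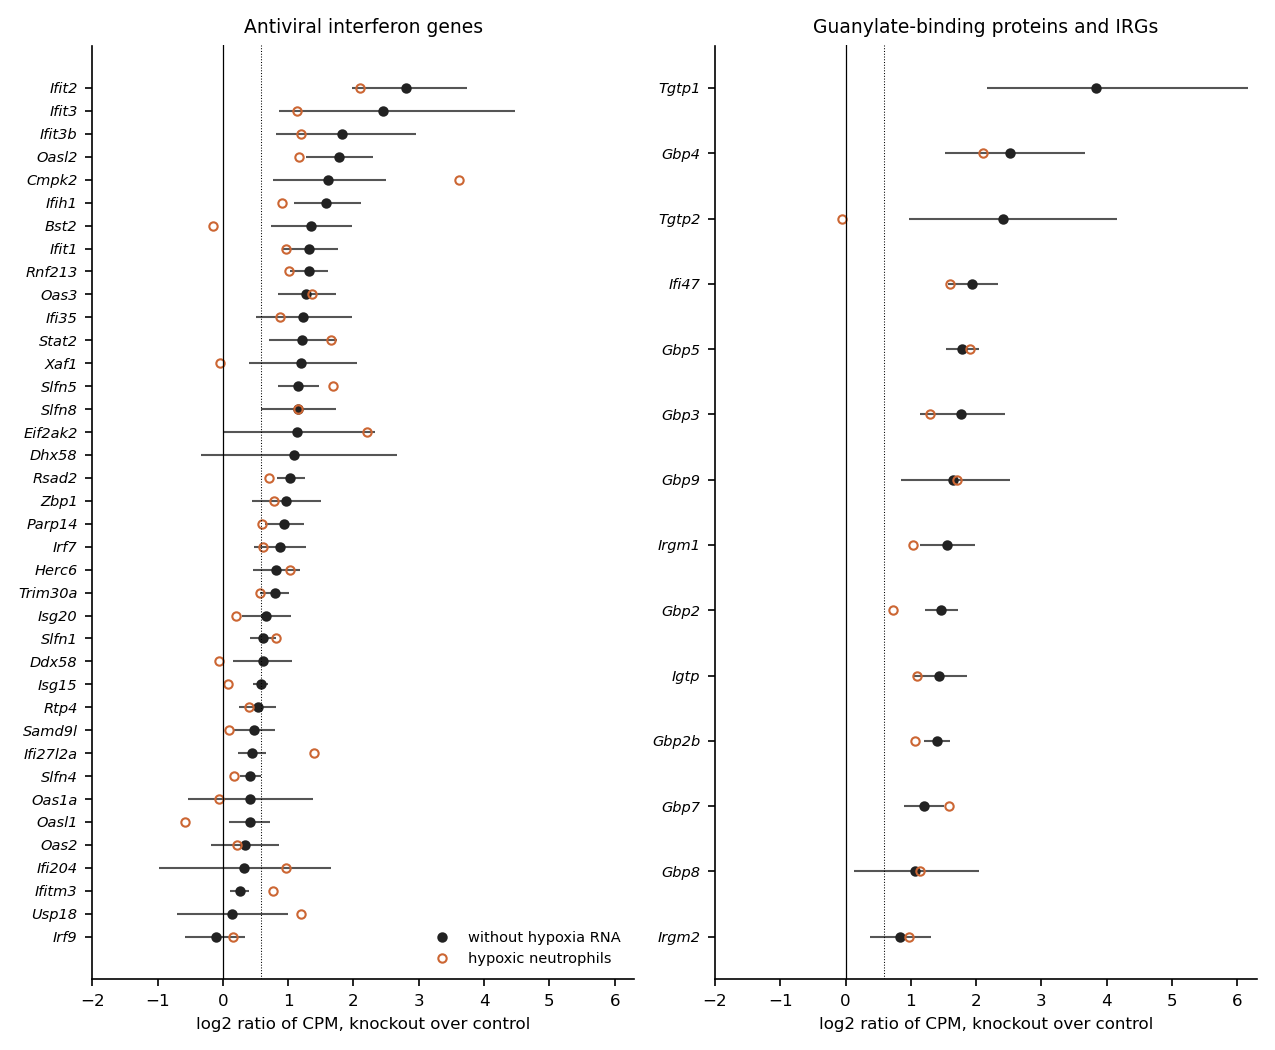
Log2 ratio of CPM, knockout over control, for the antiviral genes (left, 1 of them not drawn) and each GBP or IRG gene (right) with at least 20 UMIs in neutrophils without hypoxia RNA (filled points, bars are exact 95% intervals for counting error) and in hypoxic neutrophils (open points). The dotted line marks 1.5-fold; among the filled points, all 14 GBP and IRG genes lie right of it and Ifit2 lies farthest right of the antiviral genes.

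Many promoters of these genes held a shared short sequence. The core of the interferon-stimulated response element, GAAANNGAAA on either strand, was searched in the RefSeq window from 250 bases before to 50 bases after each start (GRCm38.p6). It was found for 10 of the 11 matched GBP and IRG genes, for 18 of 33 matched antiviral genes, for 3 of 12 class I chain genes (H2-T22, H2-T23 and B2m) and for 2 of 12 processing genes (Psme1 and Erap1), against 3.99% of all 27025 genes with a window. The motif TTCNNNGAA, a gamma-activated site, was found on either strand for 6 of 11 GBP and IRG genes and 9.55% of all genes. For the other lists it was found in 7 of 33 antiviral genes, 1 of 12 class I chain genes and 1 of 12 processing genes. The promoters of Gbp2, Gbp2b, Gbp5, Isg15, the chemokine gene Cxcl10 and the class I genes B2m and H2-T23 are shown as examples that hold the element, and that of the peptide transporter gene Tap1 as one that does not; they were picked after the values were seen. Each is the 250 bases before the start, 5′ to 3′ on the gene's strand, with the match in capitals. The element lies at different distances from the start in the first 7.
Gbp2, chr3:142620413-142620662, plus strand: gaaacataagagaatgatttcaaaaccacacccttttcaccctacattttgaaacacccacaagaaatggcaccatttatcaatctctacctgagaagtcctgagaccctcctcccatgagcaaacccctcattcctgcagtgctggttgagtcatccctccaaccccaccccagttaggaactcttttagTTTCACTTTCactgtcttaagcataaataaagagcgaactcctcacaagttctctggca
Gbp2b, chr3:142594597-142594846, plus strand: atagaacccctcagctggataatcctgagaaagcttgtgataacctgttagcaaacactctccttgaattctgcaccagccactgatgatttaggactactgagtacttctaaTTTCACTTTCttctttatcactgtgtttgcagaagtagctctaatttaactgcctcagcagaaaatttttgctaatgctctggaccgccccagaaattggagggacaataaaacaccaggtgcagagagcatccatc
Gbp5, chr3:142496684-142496933, plus strand: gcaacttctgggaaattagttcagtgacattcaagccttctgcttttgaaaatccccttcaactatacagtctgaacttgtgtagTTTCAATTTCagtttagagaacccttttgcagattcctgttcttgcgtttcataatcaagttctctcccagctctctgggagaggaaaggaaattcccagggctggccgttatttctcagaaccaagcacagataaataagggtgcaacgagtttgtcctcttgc
Isg15, chr4:156200819-156201068, minus strand: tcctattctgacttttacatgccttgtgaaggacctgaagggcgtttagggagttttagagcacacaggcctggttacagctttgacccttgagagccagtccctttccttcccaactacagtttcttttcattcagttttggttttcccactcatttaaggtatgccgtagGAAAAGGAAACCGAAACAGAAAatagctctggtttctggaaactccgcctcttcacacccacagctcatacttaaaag
Cxcl10, chr5:92348890-92349139, minus strand: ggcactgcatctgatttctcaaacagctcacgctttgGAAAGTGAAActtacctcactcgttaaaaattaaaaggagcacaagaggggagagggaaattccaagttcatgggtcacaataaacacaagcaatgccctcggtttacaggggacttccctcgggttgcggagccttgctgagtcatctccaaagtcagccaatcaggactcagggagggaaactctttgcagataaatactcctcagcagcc
B2m, chr2:122147437-122147686, plus strand: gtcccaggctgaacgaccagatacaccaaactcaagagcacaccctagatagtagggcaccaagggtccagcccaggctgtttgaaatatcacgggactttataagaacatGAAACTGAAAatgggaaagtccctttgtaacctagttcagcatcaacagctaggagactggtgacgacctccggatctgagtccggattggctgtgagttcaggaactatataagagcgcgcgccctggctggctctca
H2-T23, chr17:36032702-36032951, minus strand: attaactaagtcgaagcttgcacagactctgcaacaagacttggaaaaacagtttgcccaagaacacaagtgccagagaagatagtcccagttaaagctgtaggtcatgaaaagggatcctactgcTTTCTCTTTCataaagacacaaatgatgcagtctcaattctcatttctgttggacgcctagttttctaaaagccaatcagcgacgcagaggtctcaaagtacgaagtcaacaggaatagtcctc
Tap1, chr17:34187306-34187555, plus strand: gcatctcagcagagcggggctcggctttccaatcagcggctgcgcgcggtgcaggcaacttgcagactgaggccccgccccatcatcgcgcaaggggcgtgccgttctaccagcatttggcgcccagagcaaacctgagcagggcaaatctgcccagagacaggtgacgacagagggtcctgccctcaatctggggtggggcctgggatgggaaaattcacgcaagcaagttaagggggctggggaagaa
The match began 59 bases before the start in Gbp2, 137 in Gbp2b, 165 in Gbp5, 213 in Cxcl10, 139 in B2m and 124 in H2-T23. Isg15 held 3 overlapping matches, the first 78 bases before the start. A match is a description of these letters, and binding was not measured.

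MHC class I genes stood higher in the knockout members by a smaller ratio. The heavy chains and B2m together summed to 4645 CPM in control and 6430 CPM in knockout members, 1.38-fold higher (log2 ratio 0.47, interval 0.40 to 0.54). Of 9 tested members, 6 were at least 1.5-fold higher and none lower, against 23.5% and 17.6% of all genes. The median log2 ratio of the list was 0.76. B2m, the light chain shared by all class I molecules, was at 1508 CPM in 200 control cells and 2311 CPM in 179 knockout cells. Of the classical chains that present peptides to CD8 T cells, H2-K1 was at 537 CPM and 802 CPM (1.49-fold), and H2-D1 at 2262 CPM and 2697 CPM, the smallest ratio of the well-counted chains (1.19-fold). The nonclassical H2-T23, a ligand of inhibitory NK cell receptors, was at 120 CPM and 229 CPM, and H2-Q4 at 116 CPM and 199 CPM. H2-Q6 (17.9 and 63.7 CPM) and H2-Q7 (14.7 and 46.9 CPM) were sparse. H2-T24 (27.7 and 46.9 CPM) and H2-T22 (22.8 and 22.5 CPM) had intervals that include no difference. H2-Q1, H2-Q2, H2-Q10, H2-M3, Mr1 and Cd1d1 had fewer than 20 UMIs over both libraries, and H2-T10 has no row. Class I genes are near-identical copies, and the BALB/c alleles differ from the mm10 reference, so the split of UMIs between single chains is uncertain.

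The machinery that makes and loads peptides was 1.74-fold higher as a sum, at 1369 CPM in control and 2384 CPM in knockout members (log2 ratio 0.80, interval 0.67 to 0.93). Of 13 tested members, 9 were at least 1.5-fold higher and none was lower, against 23.5% and 17.6% of all genes. The list's median log2 ratio was 0.85, and Erap1 and Rfx5 had fewer than 20 UMIs. The peptide transporter subunits Tap1 (120 and 238 CPM) and Tap2 (45.6 and 146 CPM) both stood higher. So did the immunoproteasome subunits Psmb9 (125 and 232 CPM) and Psmb8 (186 and 334 CPM), whereas the third subunit, Psmb10, was at 68.4 CPM and 82.5 CPM with an interval across 0. The proteasome activator parts Psme1 (112 and 208 CPM) and Psme2 (148 and 231 CPM), the loading factor Tapbp (176 and 315 CPM), its homologue Tapbpl (11.4 and 43.1 CPM) and Nlrc5, the transactivator of class I genes (151 and 276 CPM), were at least 1.5-fold higher. The general folding factors of the endoplasmic reticulum were close between libraries: Calr at 94.4 CPM and 105 CPM, Canx at 50.5 CPM and 69.3 CPM, and Pdia3 at 65.1 CPM and 86.2 CPM, each with an interval that includes no difference.

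**Figure D2:**
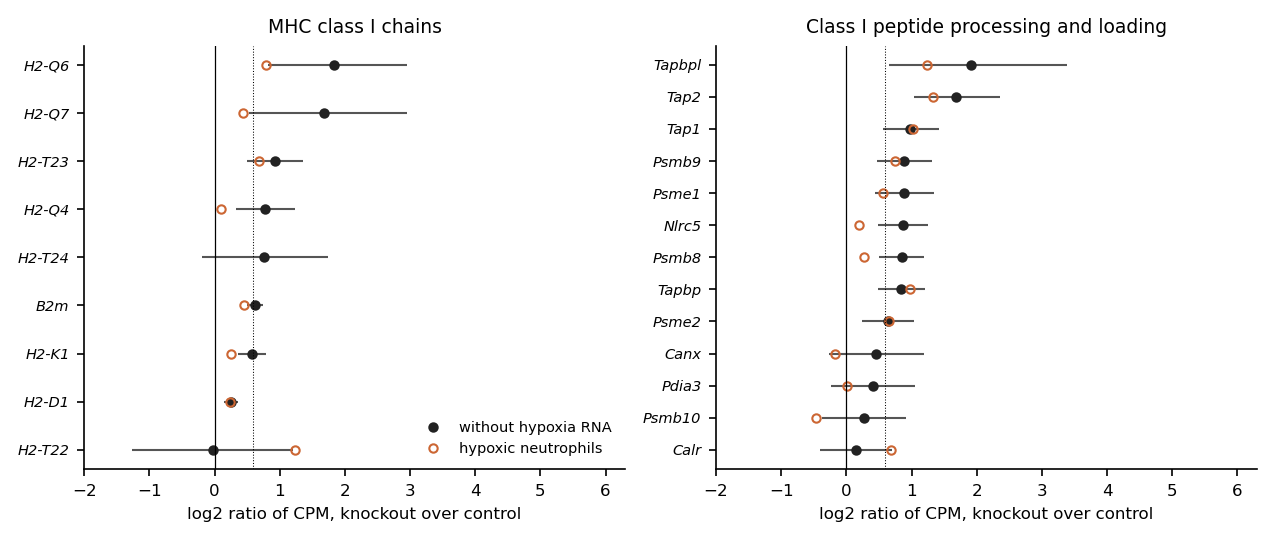
Log2 ratio of CPM, knockout over control, for class I chains (left) and class I processing genes (right), drawn as in the plot of interferon genes: filled points with exact 95% intervals are neutrophils without hypoxia RNA and open points are hypoxic neutrophils. Tap2 and Tapbpl lie farthest right among the processing genes, and Calr, Canx, Pdia3 and Psmb10 have intervals that reach 0.

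Upstream of these genes, most receptors and kinases were nearly level, with the receptor gene Ifngr2 an exception. Ifnar1 (89.5 and 112 CPM), Ifnar2 (383 and 416 CPM), Ifngr1 (168 and 210 CPM), Jak1 (560 and 555 CPM), Jak2 (309 and 369 CPM) and Stat3 (650 and 723 CPM) had intervals that include no difference, while Ifngr2 was at 68.4 CPM and 129 CPM and Irf2 at 249 CPM and 322 CPM. Irf1, a factor that type II interferon induces early, was at 770 CPM in 117 control cells and 1589 CPM in 139 knockout cells, 2.06-fold higher. Of the feedback inhibitors, Socs1 was at 48.8 CPM and 90 CPM and Socs3 at 966 CPM and 557 CPM, so the pair stood in opposite orders. In all, 5 of the 13 tested genes of this list were at least 1.5-fold higher and 1 lower, against 23.5% and 17.6% of all genes. Irf8 (13 and 103 CPM) is among the 5, and a single cell held 58.7% of its UMIs.

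The differences were visible in single cells. Per cell, the antiviral genes had a median of 65.1 UMIs per 10000 in control members (10th to 90th percentile 19.3 to 228) and 127 in knockout members (21.0 to 344). The low end of the range was thus nearly alike in both libraries, and the middle and the high end were apart. For GBP and IRG genes the median was 5.48 and 36.6 per 10000, for class I chains 37.5 and 56.3, and for class I processing 8.5 and 18.9. After thinning each cell to 500 UMIs, 59.1% of control and 31.9% of knockout members had no GBP or IRG UMI. The distributions overlapped widely for every list.

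**Figure D3:**
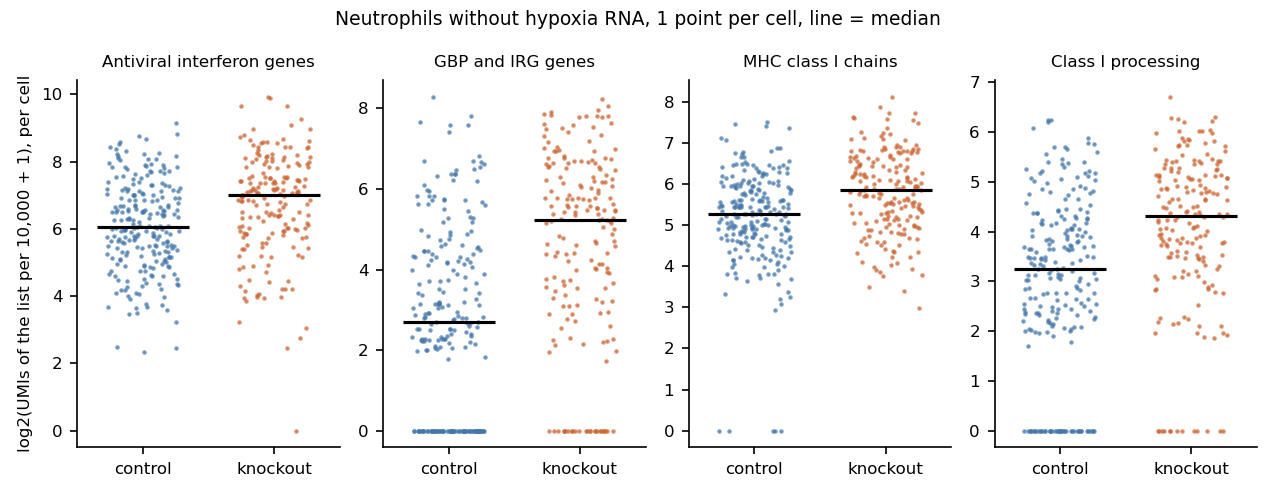
Level of each list in every neutrophil without hypoxia RNA, as log2 of UMIs per 10000 plus 1, in 235 control and 188 knockout cells; lines are medians. Medians are higher in knockout cells in all 4 panels, and the points of the libraries overlap.

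No single cell carried these sums. Without the cell that held most UMIs of the list in each library, the log2 ratio was 0.69 for antiviral genes, 1.55 for GBP and IRG genes, 0.53 for class I chains and 0.87 for class I processing. Tumour RNA in the cells was unequal between libraries. At the level of tumour markers measured in members, 7.73% and 2.17% of that in tumour cells, tumour RNA would bring 287 CPM and 103 CPM of antiviral genes, which is 2.97% and 0.662% of the members' sums. For class I chains the same proportion would bring 680 CPM and 157 CPM, or 14.6% and 2.45%, and for class I processing 19.0% and 3.57%, with the larger share in the control library. Among members with fewer than 2 UMIs of any other cell type's markers (153 control and 127 knockout cells), the log2 ratios were 0.88, 1.92, 0.76 and 1.10 for the 4 lists in the same order. That setting was added after the data were seen. By depth, the antiviral ratio was 1.44 in members under 1500 UMIs (34 control and 16 knockout cells), 0.59 in those from 1500 to under 3000 and 0.77 in those with 3000 or more.

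The hypoxic neutrophils gave ratios of the same sign for all 4 lists. Their log2 ratio was 0.61 (interval 0.55 to 0.67) for antiviral genes, 1.23 (1.11 to 1.35) for GBP and IRG genes, 0.34 (0.26 to 0.42) for class I chains and 0.52 (0.38 to 0.66) for class I processing. Of their 40 tested antiviral genes 27 were at least 1.5-fold higher and none lower, against 25.3% higher and 23.6% lower of all 5467 genes tested there. For the antiviral sum, the ratio in members minus that in hypoxic cells was 0.08 (counting interval 0.01 to 0.16). The sign of this small difference depended on the cells kept: it was -0.06 without those holding 2 or more UMIs of tumour, T, NK, B, fibroblast or endothelial markers. The same differences were 0.29 (0.13 to 0.44) for GBP and IRG genes, 0.13 (0.02 to 0.23) for class I chains and 0.28 (0.09 to 0.46) for class I processing.

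Within the control library, the antiviral sum was lower in hypoxic than in non-hypoxic neutrophils by a log2 ratio of -0.38, and within the knockout library by -0.47. Class I chains differed less between the states, at 0.13 and 0.00 (interval of the second -0.08 to 0.09). Split by hypoxia UMIs, the antiviral ratio was 0.70 in cells with none and 0.67 in cells with 1. It was 1.15 in the 68 control and 22 knockout cells with 2 to 3 and 0.23 in the 166 and 25 cells with 4 or more. For class I chains the 4 ratios were 0.60, 0.08, 1.05 and 0.06. Among the members, the class I ratio was thus well above 0 in cells with no hypoxia UMI (interval 0.52 to 0.69), while in cells with exactly 1 the interval ran from -0.07 to 0.22, with 25.1% of the control UMIs in 1 cell.

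**Figure D4:**
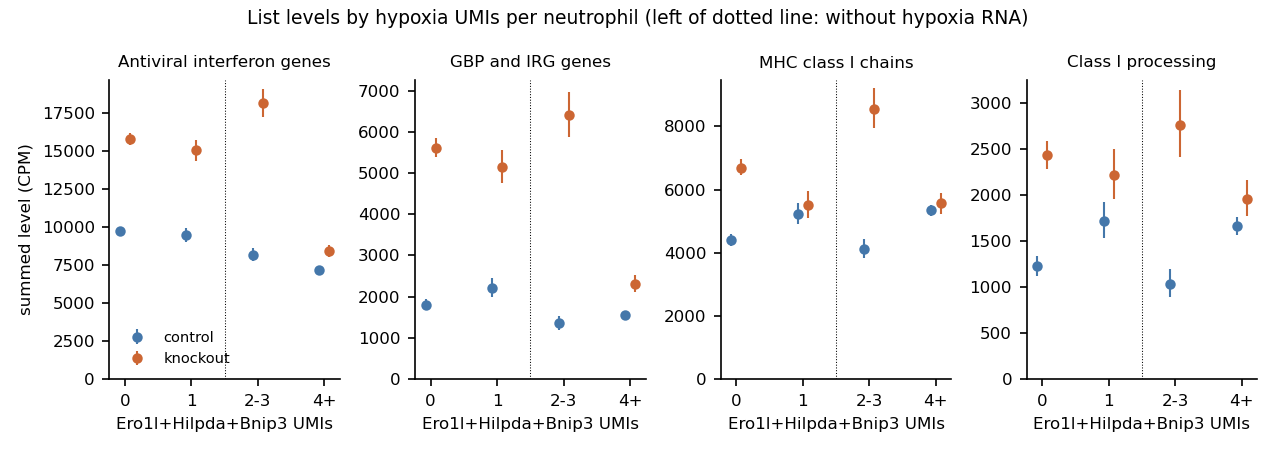
Summed CPM of each list in neutrophils with 0, 1, 2 to 3 and 4 or more UMIs of Ero1l, Hilpda and Bnip3, by library, with exact Poisson 95% intervals. Left of the dotted line are the neutrophils without hypoxia RNA; the libraries lie far apart for antiviral and GBP genes at 0 to 3 UMIs and closer together at 4 or more.

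Other cells of the same tumours did not all show these ratios. In C1q macrophages the log2 ratio of the antiviral sum was 0.44, in tumour cells 0.36 and in Ly6c2 monocytes -0.08 (interval -0.10 to -0.05). GBP and IRG genes were higher in the knockout in each of these classes, at 0.69, 0.94 and 0.42. Class I chains stood at 0.26 in macrophages, at 0.02 in monocytes and at -0.28 in tumour cells, the last in the opposite direction to the neutrophils.

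Fewer knockout members carried Retnlg, a gene of younger neutrophils. It was found in 37.9% of control members (interval 31.6 to 44.4%) and 11.2% of knockout members (7.05 to 16.6%). Thinned to 500 UMIs per cell, the shares were 21.7% and 5.32%, against 0 of 569 control T cells, which allows up to 0.527% (3 counts of the cells), and 0.102% of 985 knockout T cells. The median depth was 6549 and 7201 UMIs in those T cells. In the 146 control and 167 knockout members with no Retnlg UMI, the log2 ratio was 0.66 for antiviral genes, 1.17 for GBP and IRG genes, 0.33 for class I chains and 0.53 for class I processing. In the 89 control and 21 knockout members with a Retnlg UMI it was 0.22 (interval 0.09 to 0.34), 1.31 (1.00 to 1.60), 0.02 (-0.19 to 0.23) and 0.59 (0.20 to 0.96). In that Retnlg-positive group, 10 of 24 tested antiviral genes were at least 1.5-fold higher and 3 lower. The share of all genes past 1.5-fold was not counted there, so these counts cannot be set against a background. The median log2 ratio of all genes was 0.04 in the group. The ratios of Ifit1 (-0.71), Irf7 (-0.15), Isg20 (-0.20) and Psmb8 (-0.68) were opposite to those over all members. This split was also added after the data were seen.

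Most tested granule genes stood lower in the knockout members, Retnlg (1128 and 193 CPM) the most. The 19 granule genes summed to 4263 CPM and 2821 CPM (log2 ratio -0.60), and 5 of 9 tested were at least 1.5-fold lower, against 17.6% of all genes. Most of the difference between the 2 sums was that of Retnlg alone, and a sum without it was not made. Lcn2, the iron-siderophore trap of specific granules, was at 655 CPM and 367 CPM, Mcemp1 at 353 CPM and 139 CPM, and Cd177 at 42.3 CPM and 20.6 CPM. Mmp9, the gelatinase, was at 404 CPM and 502 CPM and haptoglobin, Hp, at 863 CPM and 999 CPM. Lysozyme, Lyz2, was at 381 CPM and 285 CPM and the protease Adam8 at 327 CPM and 227 CPM. Thus Mmp9 and Hp stood in the opposite order to the other 7 tested genes. The azurophil granule genes Mpo, Elane, Prtn3 and Ctsg, which immature neutrophils express, had no UMI in either library.

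NF-kB response genes stood higher. They summed to 10384 CPM in control and 17297 CPM in knockout members (log2 ratio 0.74, interval 0.69 to 0.78). Of the 15, 9 were at least 1.5-fold higher and none lower, against 23.5% and 17.6% of all genes. Icam1, the integrin ligand, was at 254 CPM in 59 control cells and 1136 CPM in 110 knockout cells, 4.47-fold higher. The inhibitors of the pathway Tnfaip3 (568 and 1501 CPM), Nfkbiz (1236 and 2517 CPM) and Nfkbia (2465 and 4710 CPM) stood in the same order. The lowest of the list were Rel (280 and 324 CPM), Tnip1 (86.3 and 88.1 CPM), Zc3h12a (199 and 187 CPM) and Ier3 (2125 and 1702 CPM). The core of the interferon-stimulated response element was in none of the 12 NF-kB promoter windows that were matched. The gamma-activated site was in 3 of the 12 (Nfkb2, Icam1 and Tnip1), against 9.55% of all genes.

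Among the cytokines and chemokines the largest ratio was that of Cxcl10. Cxcl10, which draws Cxcr3-bearing T and NK cells, was at 58.6 CPM in 15 control cells and 658 CPM in 30 knockout cells, 11.2-fold higher (log2 ratio 3.49, interval 2.99 to 4.03). A Cxcl10 UMI was found in 6.38% and 16.0% of cells. Thinned to 500 UMIs, 2.13% of control members (interval 0.694 to 4.90%) and 11.7% of knockout members (7.48 to 17.2%) had one, against 4.92% and 5.48% of T cells. The control share was thus not above that of T cells. How much of either share is RNA of other cells was not tested. Cxcl9 (16.3 and 180 CPM) rested on 1 control and 7 knockout cells. Tnf (129 and 431 CPM) and the interleukin 23 subunit Il23a (87.9 and 204 CPM) stood higher. The abundant genes named after their values were seen, Il1b (20124 and 20015 CPM) and Cxcl2 (18087 and 18290 CPM), were level, with intervals that include no difference. Ccl6 (817 and 255 CPM), Cxcl3 (878 and 392 CPM) and the sparse Ccl9 (29.3 and 7.50 CPM) were lower, and Il10 was at 27.7 CPM and 26.2 CPM. In all, 6 of 19 tested genes of this list were at least 1.5-fold higher and 3 lower, shares near those of all genes (23.5% and 17.6%).

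The list of genes linked to suppression of T cells had shares near the background: 3 of 13 tested were at least 1.5-fold higher and 3 lower, against 23.5% and 17.6% of all genes. Ptgs2, the prostaglandin synthase and 1 of the labelling markers, was at 1112 CPM and 2573 CPM. A Ptgs2 UMI was found in 64.7% and 84.6% of cells. Thinned, 35.7% of control members (29.6 to 42.2%) and 60.6% of knockout members (53.3 to 67.7%) had one, against 2.11% and 0.609% of T cells. Cd274 (PD-L1), the ligand of the T cell checkpoint PD-1, was at 628 CPM in 108 control cells and 1363 CPM in 128 knockout cells. Thinned, 22.6% of control members (17.4 to 28.4%) and 35.1% of knockout members (28.3 to 42.4%) had a Cd274 UMI, against 6.85% and 12.4% of T cells; unthinned, the shares were 46.0% and 68.1% of members and 53.1% and 58.1% of T cells. Havcr2 was at 26.1 CPM and 48.7 CPM. Acod1, which makes itaconate, was at 3242 CPM and 4699 CPM. Wfdc21 (902 and 212 CPM), Ifitm1 (4862 and 2159 CPM), Wfdc17 (6319 and 3722 CPM) and Alox5ap (873 and 596 CPM) were lower.

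Survival genes were mostly higher in the knockout members, with 7 of 12 at least 1.5-fold higher and 1 lower, against 23.5% and 17.6% of all genes. Of the anti-apoptotic Bcl2a1 copies, Bcl2a1a was at 55.4 CPM and 281 CPM and Bcl2a1d at 47.2 CPM and 157 CPM; these copies are nearly identical and their split is uncertain. Cflar, an inhibitor of death receptor signalling, was at 112 CPM and 289 CPM. Bcl2 (3.26 and 45.0 CPM) rested on 2 control and 5 knockout cells. Mcl1, on which neutrophils depend, was at 3002 CPM and 2830 CPM, Casp8 at 70.0 CPM and 90 CPM and Bax at 34.2 CPM and 33.7 CPM. Among 24 surface receptors 6 were at least 1.5-fold higher and 2 lower, near the shares of all genes. Fcgr2b (50.5 and 133 CPM), Clec4n (259 and 577 CPM), Fcgr4 (186 and 365 CPM) and the decoy receptor Il1r2 (1293 and 2182 CPM) were the highest by ratio. Fcgr3 (741 and 349 CPM), Cd14 (3196 and 2069 CPM), Fpr1 (234 and 157 CPM) and Trem1 (939 and 901 CPM) were the lowest. The NADPH oxidase list was level as a sum, at 2914 CPM and 2974 CPM, with its membrane subunit Cybb (71.6 and 152 CPM, 28.8% of UMIs in 1 cell) and the organiser Ncf1 (251 and 435 CPM) at least 1.5-fold higher.

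Hypoxia and glycolysis genes were lower in the knockout even among cells chosen for low hypoxia RNA. Of 23 tested, 15 were at least 1.5-fold lower and 1, Hk1 (34.2 and 56.2 CPM), higher, against 17.6% and 23.5% of all genes. Egln3, an oxygen sensor that HIF induces, was at 182 CPM and 46.9 CPM, Kdm3a at 103 CPM and 26.2 CPM, P4ha1 at 150 CPM and 45.0 CPM, the sparse Ddit4 at 27.7 CPM and 5.62 CPM, and lactate dehydrogenase, Ldha, at 275 CPM and 120 CPM. Since the rule used 3 genes of the same response, these values are related to the choice of cells. In the list of genes known from tumour-infiltrating neutrophils, 4 of 14 were at least 1.5-fold lower and none higher, against 17.6% and 23.5% of all genes. The 4 were Spp1 (650 and 259 CPM, 45.1% of its UMIs from a single cell), Hmox1 (168 and 86.2 CPM), Xbp1 (285 and 150 CPM) and Atf3 (1097 and 669 CPM).

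Of 16 immediate early and heat shock genes, which respond to tissue digestion, 6 were at least 1.5-fold higher and 5 lower. The shares of all genes were 23.5% and 17.6%. The immediate early genes Zfp36 (1469 and 3357 CPM), Egr1 (1320 and 2839 CPM), Junb (3186 and 6157 CPM) and Fos (1600.5 and 2549 CPM) were higher in the knockout members, and the heat shock genes Hspa1a (138 and 5.62 CPM), Hspa1b (104 and 5.62 CPM), Hsp90aa1 (487 and 232 CPM) and Hspa8 (645 and 360 CPM) were lower. Not all immediate early genes stood higher: Jun (669 and 459 CPM) and Atf3 (1097 and 669 CPM) were lower, and Jund (575 and 654 CPM) had an interval that includes no difference. Jun and Jund were named after their values were seen. Their part in the NF-kB and cytokine values was not tested. Adhesion genes summed to 4430 CPM and 3758 CPM, with Ilk (21.2 and 35.6 CPM) the highest by ratio and Vcl (52.1 and 28.1 CPM), Itgal (192 and 129 CPM) and Itgam (433 and 302 CPM) the lowest. Of 8 MHC class II genes 4 were tested, and H2-Eb1 (53.7 and 93.7 CPM) alone was at least 1.5-fold higher; 41.2% of the list's control UMIs were in 1 cell.

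**Figure D5:**
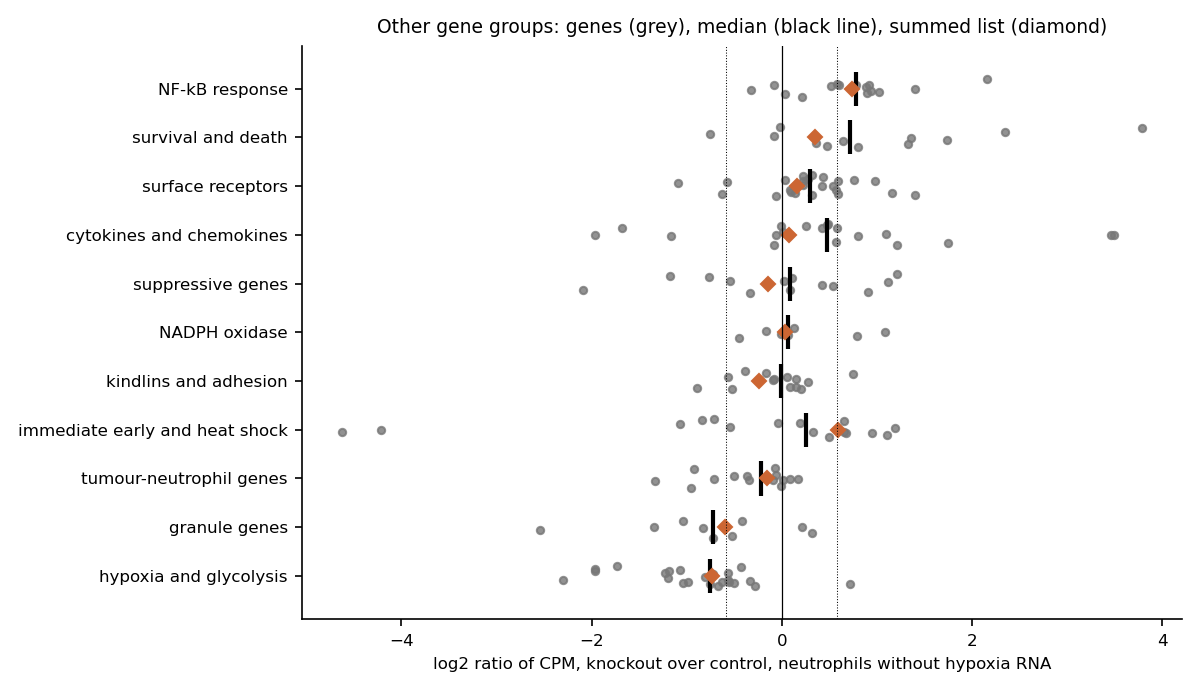
Log2 ratio of CPM, knockout over control, in neutrophils without hypoxia RNA for the genes with at least 20 UMIs in 11 further lists (grey points), with the list's median (black line) and the ratio of its summed UMIs (diamond); dotted lines mark 1.5-fold. NF-kB genes lie mostly to the right of 0, and granule and hypoxia genes mostly to the left.

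Over all genes with at least 50 UMIs, the 10 that ranked highest in the knockout by the near bound of the interval were Prkca, Cxcl10, Cxcl9, Tex2, Tcf4, Clic4, Ifit2, Gm14636, Pde1a and Irf8. For 6 of them at least 40% of all UMIs came from 1 cell. One knockout cell with 16940 UMIs, the deepest of its group, held 27 of 28 UMIs of Siglech, a marker of plasmacytoid dendritic cells, together with 40 of 54 Prkca, 45 of 59 Tcf4, 74 of 100 Tex2 and 37 of 55 Irf8 UMIs. Clic4, a chloride channel protein, was spread more widely, at 114 CPM in 29 control cells and 620 CPM in 60 knockout cells, and so was Pde1a, a cyclic nucleotide phosphodiesterase, at 19.5 CPM in 12 cells and 139 CPM in 34 cells.

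The 10 ranked lowest were P2rx7, Hspa1a, Fn1, Hspa1b, Prok2, Retnlg, Rhov, Tnfaip6, Wfdc2 and Fam162a. Tnfaip6 was at 223 CPM in 54 control cells and 31.9 CPM in 11 knockout cells, and the small GTPase gene Rhov at 122 CPM in 44 cells and 13.1 CPM in 6 cells. Prok2, a chemokine-like factor made by neutrophils, was at 184 CPM and 20.6 CPM. In members with a Retnlg UMI it was at 405 CPM and 15.9 CPM, and in those with none at 22.5 CPM and 21.2 CPM. P2rx7, an ATP-gated channel, was at 202 CPM in 19 control cells and 5.62 CPM in 2 knockout cells. Fn1 was at 335 CPM and 28.1 CPM, but 66.1% of its UMIs lay in 1 cell and its log2 ratio without the top cells was -1.94. Wfdc2 was at 124 CPM and 15 CPM in members and at 1880 CPM and 1132 CPM in tumour cells.

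Between the states, the genes higher in hypoxic neutrophils of both libraries included Ldha (275 to 830 CPM in control and 120 to 447 CPM in knockout cells) and Ext1 (44.0 to 217 CPM and 31.9 to 140 CPM), the latter with 66.7% of its UMIs in control members from 1 cell. Also among the 10 were Inpp4b, Ccl5, AW112010, Myo1e, Skap1, Rgs1 and Cblb, which rested on few cells. They had UMIs in 3 (Ccl5) to 8 (AW112010) of the 47 hypoxic knockout cells and in 7 (Ccl5) to 21 (AW112010) of the 234 hypoxic control cells. Skap1 is a T cell signalling gene; the T cell markers summed to 22.8 CPM and 30.0 CPM in members and to 278 CPM and 496 CPM in hypoxic cells, and their part was not tested. Of the hypoxic knockout UMIs, 1 cell held 84.7% for Ccl5, 66.1% for Rgs1, 58.7% for AW112010, 57.8% for Skap1 and 52.8% for Myo1e. For Cblb and Inpp4b that share was 45.6% and 34.5%. Genes higher in neutrophils without hypoxia RNA were spread over many cells. Steap4, a metalloreductase, was at 515 CPM in non-hypoxic and 179 CPM in hypoxic control cells and at 797 CPM and 283 CPM in knockout cells. Fgl2, a secreted regulator of immune cells, stood at 459 CPM and 157 CPM in control and at 945 CPM and 440 CPM in knockout cells. The transcription factor Cebpd was at 283 CPM and 133 CPM in control and at 470 CPM and 147 CPM in knockout cells. Pip5k1b, Cdk2ap2, Nlrp12, Cd300a, Rdh12 and Sfxn5 were also among the 10.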

How the data were processed

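Droplet single-cell RNA was measured in 1 control and 1 knockout library (10x Genomics 3′ v2, per the labels' protocols). The authors deposited 1 matrix of UMI counts for 15288 barcodes of both libraries; it holds whole counts, not normalized. The submitters' processing notes name Cell Ranger 2.1.1 and mm10, per the file headers the matrix was written by Cell Ranger 6.0.1, and how the libraries were combined is not given in the sources used here. Barcode suffixes were matched to libraries by the library number in the labels alone, and the number of unmapped per-sample columns was 0.

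Members and gene lists were chosen with earlier results of these data known. For every class of cells, UMIs were added up within each library (Python 3.11.15, numpy 2.4.6, scipy 1.17.1) and expressed as CPM of that class's total UMIs. The log2 ratio of 2 sums has an exact 95% conditional binomial interval, and the difference of 2 such ratios an interval from the 4 counts; both cover counting error only. Calls are at least 1.5-fold among genes with at least 20 UMIs over both libraries. Named in the text are the tested members of the interferon and class I lists, up to 4 highest and 4 lowest of each other list, and 10 genes each way of at least 50 UMIs and 2-fold, ranked by the near interval bound, without markers of other cell types and without immunoglobulin, T cell receptor, haemoglobin, mitochondrial, ribosomal protein and Y-linked genes and Xist. Between states the weaker library's bound was ranked. Shares of cells with a UMI were compared after thinning each cell to 500 UMIs. Scrublet (scanpy 1.11.5) called 2.72% of control and 3.13% of knockout cells doublets, including 0 and 2 members, which were kept. The ratio and its interval were tested on simulated Poisson counts without spread between cells, so that check does not show that the intervals are wide enough for these data. Promoter windows matched by symbol are RefSeq's. Some genes that the rule names are not reported here.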

Additional observations from a re-analysis of the deposited data

Results flagged for a closer look

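Ratios of opposite sign in the 2 neutrophil states, with intervals on either side of 0, were found for 3 of the 17 lists other than cell type markers; the difference between the states was not tested. The granule list was lower in the knockout among neutrophils without hypoxia RNA (log2 ratio -0.60, most of the difference being that of Retnlg) and higher among hypoxic neutrophils (2.66). In the hypoxic knockout cells 65.8% of the granule UMIs lay in 1 of 47 cells, and without the top cell of each library the hypoxic ratio was 1.37. The cytokine and chemokine list stood at 0.076 without hypoxia RNA and -0.23 in hypoxic cells. The kindlin and adhesion list stood at -0.24 and 0.13, and at -0.21 and 0.08 without the top cells, where the second interval includes 0 (-0.03 to 0.19). The neutrophil marker list, which holds genes of the rule and is given as description only, stood at -0.53 and 0.22.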

How the results depend on the processing

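Each group is 1 library, so no replicate could be left out, and counting error is the only error measured. No paired analysis was possible because the groups share no replicate numbers beyond 1 library each. The summed log2 ratios of the 4 interferon and class I lists were above 0 under every alternative run. Apart from the depth split, where antiviral genes reached 1.44 in cells under 1500 UMIs, they ranged from 0.22 to 0.88 for antiviral genes, 1.17 to 1.92 for GBP and IRG genes, 0.023 to 0.76 for class I chains and 0.53 to 1.10 for class I processing. Scaling by the median of ratios gave 0.64 for antiviral genes, and a total without S100a8, S100a9 and mitochondrial genes gave 0.63. Adding Ifitm1 to the antiviral list gave 0.29. With no hypoxia UMI allowed, the ratios were 1.63 for GBP and IRG genes, 0.60 for chains and 0.99 for processing, and the shares of neutrophils within the limit were 36.7% in control and 64.7% in knockout; after thinning they were 79.7% and 98.7%. Chains stood at 0.59 without cells holding 2 or more UMIs of tumour, T, NK, B, fibroblast or endothelial markers, and at 0.60 with equal weight per cell. Without cells holding 2 or more UMIs of any other type's markers the 4 ratios were 0.88, 1.92, 0.76 and 1.10. In cells with no Retnlg UMI the last 3 were 1.17, 0.33 and 0.53, and in cells with one the 4 were 0.22, 1.31, 0.023 and 0.59. In the latter cells 10 of 24 tested antiviral genes were at least 1.5-fold higher, a count without a share of all genes beside it. The antiviral ratio without hypoxia RNA minus that in hypoxic cells was 0.31 with S100a8 and S100a9 at 50 per 10000 or more. It was reversed without cells holding the first set of other markers (-0.055), without those of any other type (-0.14), with no Retnlg UMI (-0.057) and with one (-0.16). Reversed list medians were class II at -0.13 (at most 10% mitochondrial UMIs) and -0.46 (no Retnlg UMI), cytokines at -0.35 (Retnlg UMI) and tumour neutrophil genes at 0.0071 (no hypoxia UMI). With a Retnlg UMI, Ifit1 (-0.71), Irf7 (-0.15), Isg20 (-0.20) and Psmb8 (-0.68) reversed. The cause of these shifts was not tested. Of 1470 values of 104 named genes, 1345 moved by less than their counting interval.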
